A study of Mus musculus with 24 samples.

Results

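Kidney RNA of mice heterozygous for Kctd1 L27N, a substitution in the Kctd1 gene, was compared with kidney RNA of wild type mice. The comparison used the 8 kidney arrays of a set of 24 arrays that covered brain, heart and kidney of the same 8 mice. There were 4 heterozygous and 4 wild type mice, all of strain C3HeB/FeJ and 18.5 weeks old, with 1 kidney array each. The heterozygous mice carried the mutation together with a normal allele, and the labels name no other allele and no treatment. The sex of the mice, the litter and the part of the kidney taken are not given in the labels. Of the 5 wild type mice counted in the series' design text, the 4 with labels were analysed here.

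KCTD1 is a BTB-domain protein that binds AP-2 transcription factors and holds down their activity. In mice it is expressed in the distal nephron, where the AP-2 member Tfap2b is needed for the distal convoluted tubule to form, and in people KCTD1 mutations cause a syndrome of the skin that can also affect the kidney. The distal nephron runs from the thick ascending limb, which dilutes the urine, through the distal convoluted tubule, which reabsorbs salt and magnesium, to the connecting tubule and collecting duct. In the last of these, principal cells take up sodium and water and intercalated cells handle acid and base.

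The measured quantity was the brightness of a bead probe, normalized within kidney and given as log2 intensity, so that a difference of 1 is a 2-fold difference. Of the 25697 probes on the array, 10976 had a detection p under 0.05 on 4 or more kidney arrays and were tested with limma. They stood for 7907 named genes. A probe was called where its p-value, adjusted over all 10976 probes, was under 0.05. Each array detected 10692 to 11372 probes, and its median deposited intensity was 102.4 to 106.4. Correlations of arrays were 0.984 to 0.992 within a genotype and 0.983 to 0.990 between genotypes. None of the probes was named Kctd1, and the gene's own level was not analysed here.

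One feature of the arrays ran across the genotypes. The first principal component, with 31.5% of the variance, separated the arrays numbered 17 to 20, at −14.8 to −5.93, from those numbered 21 to 24, at 8.06 to 14.5. The lower run held 1 heterozygous and 3 wild type mice and the upper run 3 heterozygous and 1 wild type mouse. The labels do not say what the numbers stand for. Differences within each run are therefore given beside the results. Each is a comparison of 1 mouse with 3, without a test of its own.

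In heterozygous kidneys, a marker of the distal convoluted tubule (Pvalb) and one of the thick ascending limb (Wfdc15b) were 2.21-fold and 2.23-fold lower, and the secreted chaperone clusterin (Clu) and a beta-defensin (Defb2) were 2.43-fold and 2.21-fold higher. Another called marker of the thick ascending limb, Bsnd, was 1.62-fold higher, and its marker Umod was at −0.01 (limma adjusted p 0.986). In all, 30 probes were called, 0.273% of those tested. Of these, 16 were higher (0.146% of those tested) and 14 were lower (0.128%). They stood for 28 named genes, 16 higher and 12 lower, and 1 probe without a gene name. The sizes ran from 0.56 to 1.30 with a median of 0.80, and 6 probes differed by 2-fold or more, 2 higher and 4 lower. An unadjusted p under 0.05 was found for 935 probes, 8.52% of those tested. The median difference of all tested probes was 9e-04. For all 30 called probes the 4 heterozygous mice lay entirely on one side of the 4 wild type mice, which was so for 4.58% of all tested probes. The 30 were picked for their small p-values on these same arrays, so their lack of overlap is no separate evidence. Groups that do not overlap fix the sign within each run, so only the sizes are of use there: the median was 0.69 within samples 17 to 20 and 0.81 within samples 21 to 24. With the run as a block 25 probes were called, with the sample number as a covariate 18, and without the first and the last array 8. When each mouse was left out in turn, 14 of the 30 probes were called in all 8 fits, and the other 16 in 1 (Slc26a4, Rab15) to 6 (Ltc4s, Bcat1) of them.

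**Figure D1:**
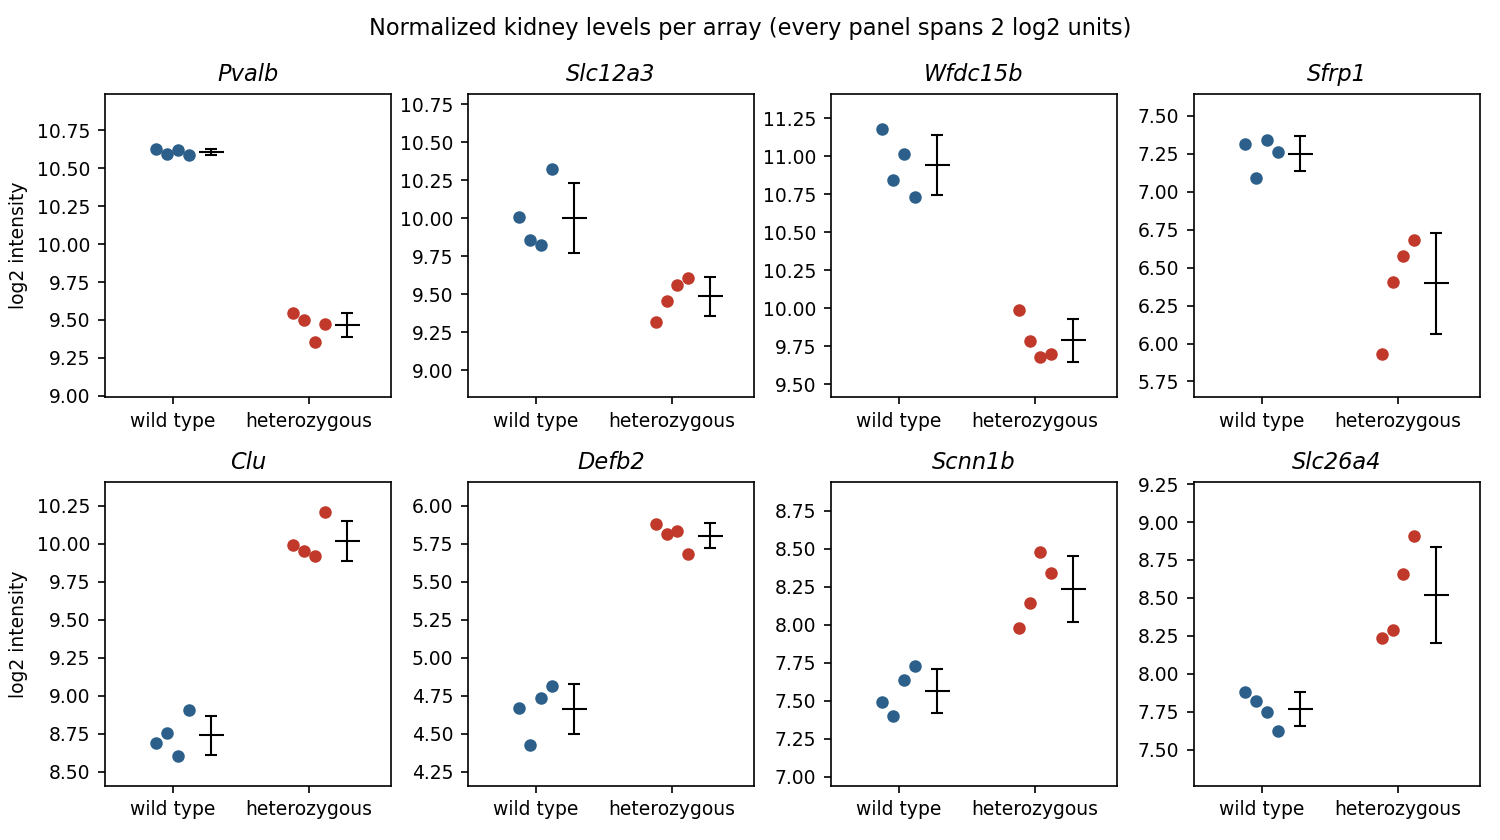
Normalized log2 intensity of 8 probes on each of the 8 kidney arrays, wild type in blue and heterozygous in red, with the mean and SD of each group as bars. Every panel spans 2 log2 units. The groups do not overlap in any panel, and the 4 wild type mice of Pvalb lie between 10.59 and 10.63.

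Pvalb encodes parvalbumin, a calcium-binding protein that marks the early distal convoluted tubule. Its log2 intensity was 9.54, 9.50, 9.35 and 9.47 in the 4 heterozygous mice and 10.63, 10.60, 10.62 and 10.59 in the wild type mice. On the deposited linear scale these were 743 to 885 against 1478 to 1712. The wild type mice were within 0.04 of each other, and the nearest heterozygous mouse was 1.04 log2 units lower. Pvalb fell by 1.14 ± 0.09 (SE), a 2.21-fold difference, with an adjusted p of 5.23e-05. Within samples 17 to 20 the difference was −1.07 and within samples 21 to 24 it was −1.15. In RNA from a whole kidney, fewer cells of a type and less RNA per cell cannot be told apart, here and in all that follows.

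The other markers of the distal convoluted tubule had smaller differences. Slc12a3, the thiazide-sensitive sodium chloride cotransporter that defines the segment, has 3 tested probes. Its brightest read 9.32, 9.46, 9.56 and 9.60 in heterozygous and 10.01, 9.85, 9.82 and 10.33 in wild type mice, without overlap of the groups. That difference was −0.52 ± 0.12 and did not pass (adjusted p 0.158). A dimmer probe of the gene lay just outside the threshold, at −0.50 ± 0.10 (adjusted p 0.0547), and the dimmest was at −0.17 ± 0.20 (adjusted p 0.848). Trpm6, the magnesium channel of the segment, was at −0.34 ± 0.11 (adjusted p 0.377) and its second probe at −0.25. For Wnk1, a kinase that controls the cotransporter, the brighter probe was at −0.26 ± 0.10 (adjusted p 0.465) and the dimmer one at 0.03. Of the 10 tested marker genes of this segment 1 was called, beside 0.354% of all tested genes. An unadjusted p under 0.05 was found for 4, all of them lower, against 4.41% of all tested genes that were lower at that p. The median of the 10 was −0.23, beside 0.0016 over all tested genes, and 6 of the 10 were below 0, against 49.7% of all tested genes. Among those above 0 were Sgms2 (0.18) and Kcnj16 (0.14). The mean log2 intensity over the 10 genes was 7.83 to 7.94 in heterozygous and 8.04 to 8.25 in wild type mice.

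Wfdc15b encodes a small secreted protein of the whey acidic protein family and is a marker of the thick ascending limb in mice. Both of its probes were called. The brighter read 9.98, 9.79, 9.68 and 9.70 in heterozygous and 11.18, 10.84, 11.01 and 10.73 in wild type mice, so that the groups were 0.75 apart at their nearest points. It fell by 1.16 ± 0.12, a 2.23-fold difference (adjusted p 0.000344), and by 1.03 and 1.01 within the lower and the upper run. The dimmer probe fell by 0.84 ± 0.11 (adjusted p 0.00397). Bsnd, which encodes barttin, a subunit of the chloride channels on the blood side of these cells and of intercalated cells, went the other way. It read 7.62, 8.05, 7.71 and 8.09 in heterozygous and 7.35, 7.10, 7.11 and 7.14 in wild type mice, a rise of 0.69 ± 0.12 (adjusted p 0.0279), and was called in 3 of the 8 fits that each leave out a mouse. The remaining markers of the segment did not pass. Egf, which encodes the precursor of epidermal growth factor, was at −0.53 ± 0.16 (adjusted p 0.308), the phosphatase inhibitor Ppp1r1a at −0.47 ± 0.13 (adjusted p 0.253), the cotransporter Slc12a1 at −0.47 ± 0.24 (adjusted p 0.624) and Umod, which encodes uromodulin, at −0.01 ± 0.13 (adjusted p 0.986). The 11 tested markers of this segment had a median of −0.22, and 9 were below 0, against 49.7% of all tested genes. With the sample number as a covariate that median was −0.0064, with the run as a block −0.01, and without the first and the last array −0.03. In each of these settings 6 of the 11 were below 0.

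Because KCTD1 acts through AP-2 factors, the start regions of the called genes were searched for the AP-2 consensus GCCNNNGGC, which reads the same on both strands, where N is any base. The regions are RefSeq's for GRCm38.p6 and span 250 bases before to 50 after each gene's start. Of the 28 genes, 20 have such a region in the table, and 6 of these 20 hold the motif. Among genes with a tested probe 25.1% of 6453 regions hold it, and among all 27025 regions 16.5%. The 6 were Pvalb, Olfml2b, Ckb and Adssl1, which fell, and Defb42 and Rab15, which rose. The share was near that of all tested genes, and a match is a description of the letters only. The 250 bases before the start are shown for Pvalb, which had the smallest p-value, for Wfdc15b, which also fell more than 2-fold and has no match, and for Defb42, which rose and has one. Capitals mark the motif. The Pvalb stretch is chr15:78206401-78206650 on the minus strand with the motif starting at −81 from the gene's start, the Wfdc15b stretch is chr2:164221664-164221913 on the minus strand, and the Defb42 stretch is chr14:63046741-63046990 on the plus strand with the motif at −35.
Pvalb: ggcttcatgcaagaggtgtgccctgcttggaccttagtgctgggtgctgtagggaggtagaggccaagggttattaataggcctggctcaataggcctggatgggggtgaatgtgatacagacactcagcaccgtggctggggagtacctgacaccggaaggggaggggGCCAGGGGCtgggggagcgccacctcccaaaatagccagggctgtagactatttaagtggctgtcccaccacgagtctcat
Wfdc15b: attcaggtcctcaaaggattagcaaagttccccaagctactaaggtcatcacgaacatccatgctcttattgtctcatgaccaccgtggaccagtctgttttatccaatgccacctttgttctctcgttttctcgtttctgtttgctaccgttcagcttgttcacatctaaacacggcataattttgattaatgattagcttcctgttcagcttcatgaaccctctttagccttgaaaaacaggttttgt
Defb42: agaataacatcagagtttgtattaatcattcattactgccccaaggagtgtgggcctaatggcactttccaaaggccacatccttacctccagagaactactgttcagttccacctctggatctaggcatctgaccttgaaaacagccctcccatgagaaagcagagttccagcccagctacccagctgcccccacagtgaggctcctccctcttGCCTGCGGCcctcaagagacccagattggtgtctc

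Farther along the nephron, 3 transporter genes rose: Scnn1b of the connecting tubule and principal cells, and Slc26a4 and Slc4a9 of intercalated cells. Scnn1b, the beta subunit of the epithelial sodium channel, read 7.98, 8.14, 8.48 and 8.34 in heterozygous and 7.49, 7.40, 7.63 and 7.73 in wild type mice. It rose by 0.67 ± 0.12 (adjusted p 0.0343). The channel's other subunits did not pass: Scnn1a was at −0.30 ± 0.14 (adjusted p 0.600) and Scnn1g at 0.16 ± 0.12 (adjusted p 0.748). Hsd11b2, the enzyme that shields the mineralocorticoid receptor from glucocorticoids, was at 0.52 ± 0.15 (adjusted p 0.271), and the kallikrein Klk1 at 0.49 ± 0.20 (adjusted p 0.530). Of the water channels, Aqp4 was at −0.51 ± 0.14 (adjusted p 0.251) and Aqp2 at −0.24 ± 0.10 (adjusted p 0.551). Of the 11 tested markers of connecting tubule and principal cells, 1 was called, 6 had an unadjusted p under 0.05 (4 higher and 2 lower), beside 0.354% and 9.07% of all tested genes, and the median was 0.02. Calb1 and Avpr2, further markers of these cells, were detected on 0 of the 8 arrays.

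Slc26a4 encodes pendrin, the chloride and bicarbonate exchanger of type B intercalated cells, and Slc4a9 encodes an anion exchanger on the blood side of the same cells. For Slc26a4 the heterozygous mice read 8.24, 8.29, 8.66 and 8.90 and the wild type mice 7.88, 7.82, 7.75 and 7.62. Slc4a9 was at 6.82, 6.76, 6.43 and 6.60 against 5.64, 5.80, 5.90 and 6.25. In both genes every heterozygous mouse was above every wild type mouse. Slc26a4 rose by 0.75 ± 0.14 (adjusted p 0.0377), with 0.42 and 0.99 within the lower and the upper run. The rise of Slc4a9 was 0.76 ± 0.13 (adjusted p 0.0275), with 1.04 and 0.35. Foxi1, the transcription factor of intercalated cells, was at 0.59 ± 0.17 (adjusted p 0.292) with its dimmer probes at 0.14 and 0.11, and the ammonia transporter Rhcg was at 0.38 ± 0.15 (adjusted p 0.530). Car2, which encodes carbonic anhydrase 2, was the lone tested marker below 0, at −0.41 ± 0.17 (adjusted p 0.551). Slc4a1, the anion exchanger of type A cells and of red cells, was at 0.08 ± 0.10. Of the 8 tested markers 2 were called and 5 had an unadjusted p under 0.05, 4 of them higher, beside 0.354% and 9.07% of all tested genes. Their median was 0.29, which became 0.17 with the sample number as covariate, 0.17 with the run as a block and 0.10 without background correction. The mean log2 intensity of the 8 was 6.47 to 6.66 in heterozygous and 6.16 to 6.34 in wild type mice. The proton pump subunits Atp6v1b1 and Atp6v0d2 were detected on 0 of the 8 arrays.

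The calls in these collecting duct genes were close to the threshold. Slc26a4 had the highest adjusted p of the 30. It was called in 8 of the 24 other settings, including 1 of the 8 fits that each leave out a mouse, with adjusted p up to 0.240. Scnn1b was called in 10 of 24, including 2 of 8, with adjusted p up to 0.435, and Slc4a9 in 12 of 24, including 2 of 8, with adjusted p up to 0.248. All kept their sign, which groups without overlap fix when a mouse is left out.

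**Figure D2:**
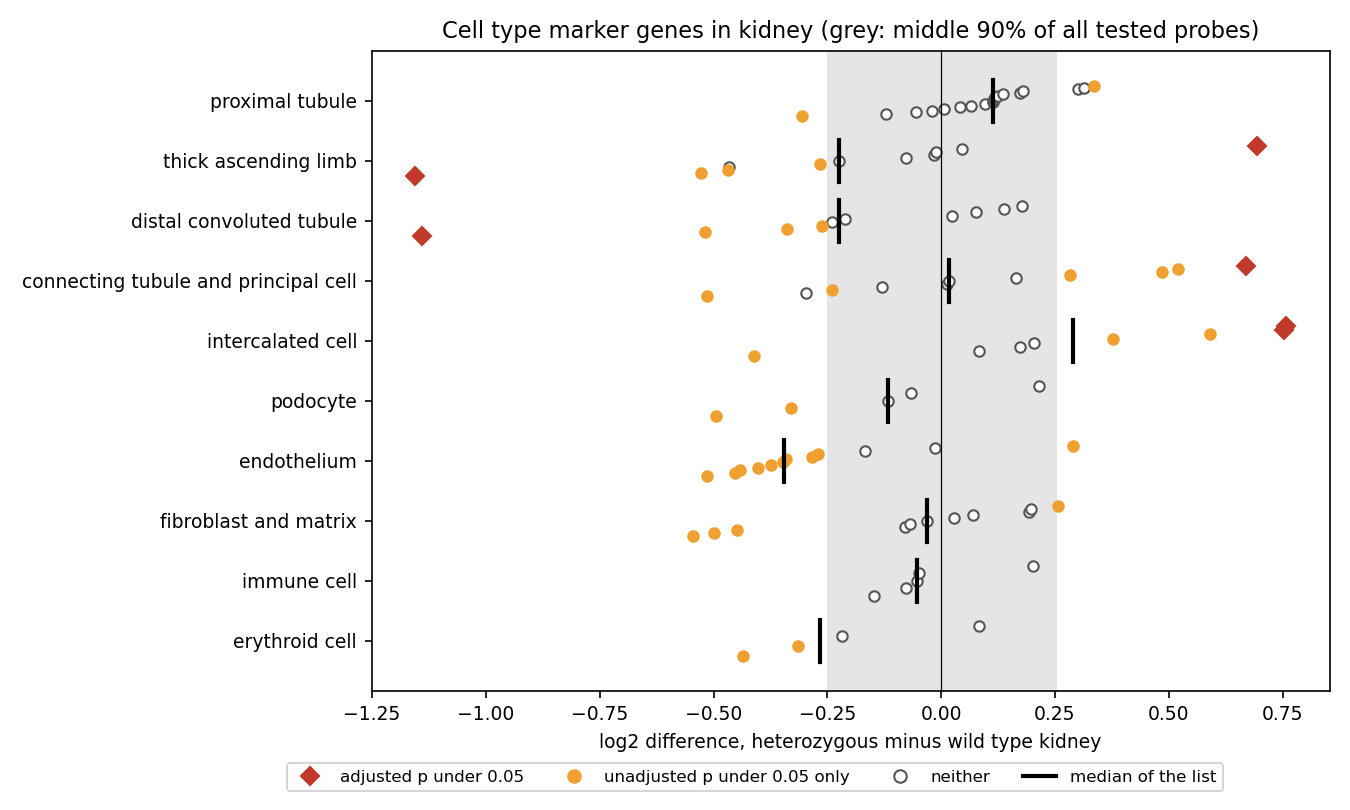
Log2 difference of heterozygous minus wild type kidneys for each tested marker gene of 10 cell types, 1 probe a gene; diamonds passed the adjusted threshold, filled circles have an unadjusted p under 0.05 only, and the short vertical line is the median. The distal convoluted tubule holds Pvalb at −1.14 far to the left of its other members, the intercalated cell list has its median at 0.29 and the endothelium list at −0.34.

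Clu encodes clusterin, a secreted chaperone of tubule cells that is widely used as a marker of kidney injury. It read 9.99, 9.95, 9.92 and 10.21 in heterozygous and 8.69, 8.76, 8.60 and 8.91 in wild type mice. The nearest mice of the groups were 1.01 apart. Clu rose by 1.28 ± 0.11, a 2.43-fold difference (adjusted p 5.23e-05), and by 1.31 and 1.12 within the lower and the upper run. It was the only one called among 17 tested injury genes, whose median was 0.09. Of all tested genes 0.354% were called. Lcn2, which encodes the iron-binding lipocalin shed by injured tubules, was at 0.52 ± 0.14 (adjusted p 0.253), and Lgals3, which encodes galectin-3, at 0.29 ± 0.10 (adjusted p 0.441). Havcr1, which encodes kidney injury molecule 1 of the proximal tubule, was at −0.40 ± 0.15 (adjusted p 0.498). Havcr1 read 6.37, 5.84, 6.19 and 5.95 in heterozygous and 6.81, 6.46, 6.61 and 6.09 in wild type mice, with overlap.

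The next genes encode secreted or granule proteins, were gathered after their values were seen and all rose, while the secreted or granule products of Wfdc15b, Sfrp1, Sycn and Olfml2b fell. Defb2 and Defb42 encode beta-defensins, small antimicrobial peptides of epithelia. Defb2 read 5.88, 5.81, 5.84 and 5.69 in heterozygous and 4.67, 4.43, 4.73 and 4.81 in wild type mice, of which 3 were detected. It rose by 1.14 ± 0.11, a 2.21-fold difference (adjusted p 0.000153). Defb42 read 5.95, 5.44, 5.70 and 5.61 against 4.69, 5.10, 4.74 and 4.63 and rose by 0.88 ± 0.13 (adjusted p 0.00848). Both are dim, so the size of their difference depends on the background correction: without it they were at 0.36 (adjusted p 0.00699) and 0.27 (adjusted p 0.0871). Spink8, a member of the Kazal family of serine protease inhibitors, was brighter. It read 8.01, 7.88, 8.20 and 8.33 against 7.26, 7.08, 7.06 and 7.23, a rise of 0.95 ± 0.11 (adjusted p 0.00156). Guca2a, which encodes guanylin, a peptide that promotes salt loss in gut and kidney, rose by 0.66 ± 0.10 (adjusted p 0.0110), with wild type mice at 5.85 to 6.09 and heterozygous mice at 6.52 to 6.77. Scg5, which encodes the secretory granule chaperone 7B2, rose by 0.73 ± 0.11 (adjusted p 0.00807), with wild type mice at 5.56 to 5.84 and heterozygous mice at 6.29 to 6.61. Without background correction Spink8 was at 0.67 (adjusted p 0.0108), and Guca2a and Scg5 were at 0.32 each (adjusted p 0.0301). Guca2a was called in 5 of the 8 fits that leave out a mouse.

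Secreted modulators of WNT signalling moved in opposite directions. Sfrp1 encodes a secreted protein that binds WNT ligands. It read 5.93, 6.41, 6.58 and 6.68 in heterozygous and 7.32, 7.09, 7.34 and 7.26 in wild type mice, and the lowest heterozygous mouse was 0.48 below the next. Sfrp1 fell by 0.85 ± 0.14 (adjusted p 0.0201), with −1.32 within the lower run, which holds that mouse, and −0.71 within the upper. Dkk3, a relative of the Dickkopf WNT inhibitors, rose by 0.62 ± 0.11 (adjusted p 0.0210), with wild type mice at 5.62 to 5.98 and heterozygous mice at 6.36 to 6.51. A second Dkk3 probe was at 0.32 ± 0.12 (adjusted p 0.498). Sfrp1 was called in 16 of the 24 other settings, including 5 of the 8 fits that leave out a mouse, with adjusted p up to 0.189. The called Dkk3 probe was also called in 16 of 24, including 3 of 8, with adjusted p up to 0.157. These were the only called genes among 14 tested members of the BMP, WNT and TGF-beta list, whose median was 0.05. Of all tested genes 0.354% were called.

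Called genes that encode metabolic enzymes or carriers are described together here; they were gathered after their values were seen and are no tested group. Ckb, which encodes brain-type creatine kinase, read 10.22, 9.69, 9.76 and 9.83 in heterozygous and 10.82, 10.80, 10.70 and 10.55 in wild type mice. It fell by 0.84 ± 0.12 (adjusted p 0.00807). Fabp3, the heart-type fatty acid binding protein, was at 7.61, 7.44, 7.49 and 7.74 against 8.38, 8.13, 8.24 and 8.36 and fell by 0.71 ± 0.11 (adjusted p 0.00822). Adssl1, a muscle-type enzyme of the purine nucleotide cycle, fell by 0.72 ± 0.12 (adjusted p 0.0195), from 7.38 or more in every wild type mouse to at most 7.16, and its second tested probe was at −0.49 (adjusted p 0.253). Perm1, a regulator of oxidative metabolism in muscle, fell by 0.57 ± 0.09 (adjusted p 0.0183), from 5.33 or more to at most 4.95, and was at −0.17 (adjusted p 0.0993) without background correction. Bcat1, the cytosolic transaminase of branched-chain amino acids, fell by 0.82 ± 0.13 (adjusted p 0.0110), with wild type mice at 6.92 to 7.19 and heterozygous mice at 5.93 to 6.53. Pgam2, the muscle form of the glycolytic phosphoglycerate mutase, went up instead, by 0.59 ± 0.11 (adjusted p 0.0275), with wild type mice at 7.08 to 7.28 and heterozygous mice at 7.63 to 7.95. Perm1 and Pgam2 were called in 13 and Adssl1 in 11 of the 24 other settings, including 3, 2 and 2 of the 8 fits that leave out a mouse. Of 18 tested genes of fatty acid oxidation and PPARA targets 0 were called by limma and 5 had an unadjusted p under 0.05 (median 0.08). Of all tested genes 0.354% were called and 9.07% were at that p. Among the 5 were Acaa1b at 0.35 ± 0.10 (adjusted p 0.253) and Acadm at −0.27 ± 0.09 (adjusted p 0.422).

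Sycn, which encodes syncollin, a protein of pancreatic secretory granules, had the largest size of the 30. It read 4.90, 4.65, 4.41 and 4.67 in heterozygous mice, of which 3 were detected, and 6.36, 5.88, 5.61 and 5.98 in wild type mice. It fell by 1.30 ± 0.15 (adjusted p 0.00121), and without background correction the difference was −0.43 (adjusted p 0.0529). Rasgrp1, which encodes an activator of RAS known from T cells, was at 5.39, 4.39, 4.61 and 4.75 against 6.02, 6.33, 5.97 and 5.55. The highest heterozygous and the lowest wild type mouse were 0.15 apart. Rasgrp1 fell by 1.18 ± 0.20 (adjusted p 0.0183), and it was called in 11 of the 23 other settings that tested it, with adjusted p up to 0.234. It was at −0.39 (adjusted p 0.128) without background correction and was called in 2 of the 8 fits that leave out a mouse. Slc6a12, the betaine and GABA transporter by which cells of the medulla take up betaine, fell by 0.83 ± 0.11 (adjusted p 0.00397), with wild type mice at 5.47 to 5.85 and heterozygous mice at 4.68 to 4.91. Without background correction its difference was −0.25 (adjusted p 0.0529). Olfml2b, a secreted protein of the olfactomedin family, fell by 0.84 ± 0.11 (adjusted p 0.00397), from 5.10 or more in every wild type mouse to at most 4.56, and was at −0.23 (adjusted p 0.0716) without background correction. The probe without a gene name, ILMN_2777226, fell by 0.56 ± 0.10 (adjusted p 0.0295).

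The remaining called genes rose. Reep6, a protein that shapes the endoplasmic reticulum, read 7.26, 7.81, 7.89 and 7.87 in heterozygous and 6.62, 6.61, 6.91 and 6.84 in wild type mice, a rise of 0.96 ± 0.14 (adjusted p 0.00807). One heterozygous mouse lay well below the other 3 and still above all wild type mice. Ltc4s, the synthase of leukotriene C4, rose by 0.77 ± 0.12 (adjusted p 0.0110), from at most 5.06 in wild type to 5.44 or more in heterozygous mice. Abhd4, a lipase that acts on N-acyl phospholipids, rose by 0.73 ± 0.12 (adjusted p 0.0131), from at most 5.53 to 5.87 or more. Rab15, a small GTPase of endosome traffic, rose by 0.57 ± 0.11 (adjusted p 0.0343), from at most 6.15 to 6.43 or more. Abhd4 was called in 2 of the 8 fits that leave out a mouse and Rab15 in 1 of 8. Without background correction Reep6 was at 0.62, Abhd4 at 0.26 and Rab15 at 0.27 (each adjusted p 0.0529). Ltc4s was then at 0.26 (adjusted p 0.0930).

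**Figure D3:**
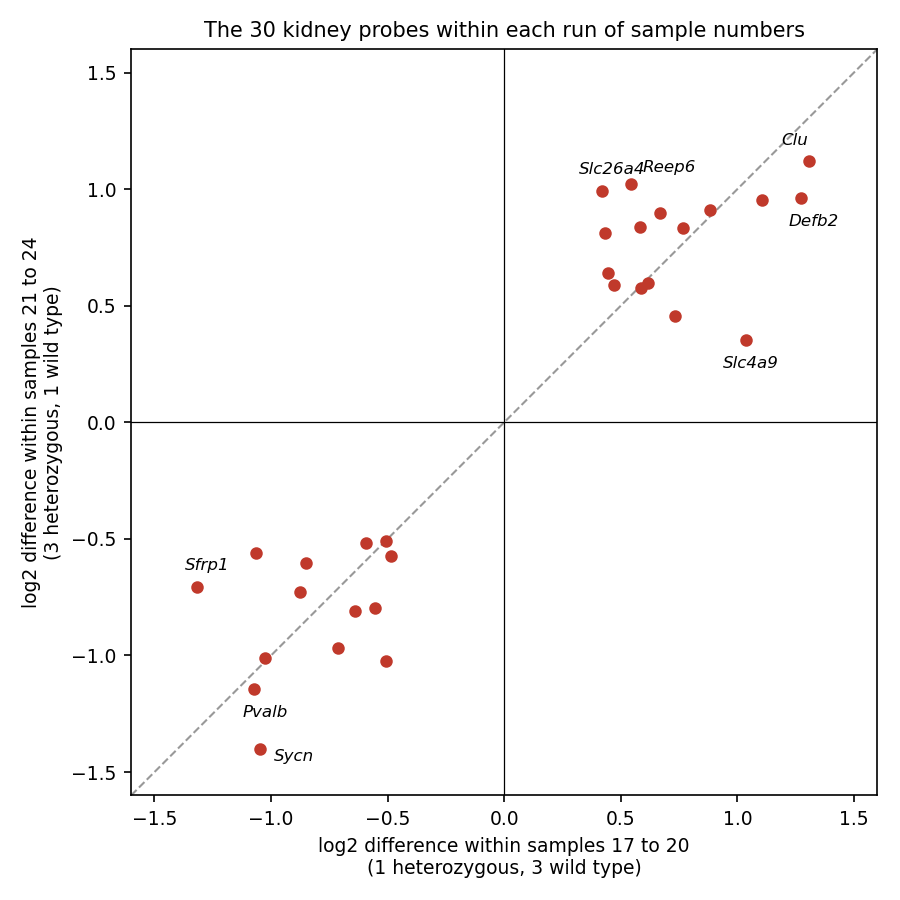
Each point is a called probe, placed by its log2 difference within samples 17 to 20 (1 heterozygous against 3 wild type mice, horizontal axis) and within samples 21 to 24 (3 against 1, vertical axis); the dashed line marks equal differences. Equal signs follow from the lack of overlap of the groups. Sfrp1 and Slc4a9 are larger in the lower run and Slc26a4 and Reep6 in the upper.

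Among the KCTD and AP-2 genes themselves, 0 of 17 tested were called by limma and 2 had an unadjusted p under 0.05, with a median of −0.02. Both counts are near the shares of all tested genes, 0.354% and 9.07%. Tfap2b, the AP-2 factor of the distal nephron, has 3 tested probes, all higher: 0.30 ± 0.13, 0.39 ± 0.13 and 0.47 ± 0.16, with adjusted p of 0.551, 0.401 and 0.400. Its brightest read 6.99, 7.00, 7.29 and 7.37 in heterozygous and 6.57, 6.91, 6.96 and 7.00 in wild type mice, with a small overlap of the groups. Kctd10, a relative of Kctd1 in the same family, was at −0.31 ± 0.12 (adjusted p 0.514).

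Most markers of blood vessels were lower in heterozygous mice, none by a called difference. All 12 endothelial genes were tested, 0 were called by limma, and 10 had an unadjusted p under 0.05, 9 lower and 1 higher, where 4.41% of all tested genes were lower at that p. Plvap, of the diaphragm of fenestrated capillaries, was at −0.51 ± 0.14 (adjusted p 0.251) and read 8.14, 8.15, 8.01 and 7.96 in heterozygous and 8.88, 8.67, 8.63 and 8.14 in wild type mice. The receptor Tek was at −0.45 ± 0.13 (adjusted p 0.289), the surface sialomucin Emcn at −0.44 ± 0.14 (adjusted p 0.336) and the TGF-beta co-receptor Eng at −0.40 ± 0.11 (adjusted p 0.265). Kdr, the main receptor of VEGF, was on the other side at 0.29 ± 0.11 (adjusted p 0.513). Its probe was dim and was detected on 4 heterozygous and 2 wild type arrays. Among the lower genes, the probe of Tie1 (−0.37) was also dim and was detected on 2 heterozygous and 4 wild type arrays. The list's median was −0.34, and its mean log2 intensity was 6.38 to 6.56 in heterozygous and 6.62 to 6.91 in wild type mice. The median was −0.31 within the lower and −0.14 within the upper run. With the sample number as a covariate it was −0.20 with 5 genes at that p, and without the first and the last array −0.23 with 4.

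Other cell types gave smaller or mixed differences, with 0 calls by limma in each list that follows. Over all tested genes 0.354% were called, 9.07% had an unadjusted p under 0.05 and 49.7% were below 0. Of 5 tested podocyte genes, Cdkn1c (−0.49 ± 0.13, adjusted p 0.246) and Ptpro (−0.33 ± 0.10, adjusted p 0.342) had an unadjusted p under 0.05, and the median was −0.12. Of 4 erythroid genes, Hba-a1 (−0.44 ± 0.13, adjusted p 0.271) and Alas2 (−0.31 ± 0.13, adjusted p 0.531) did, with a median of −0.27. The 11 tested fibroblast and matrix genes had a median of −0.03 and 4 at that p, among them Ccn2 at −0.55 ± 0.14 (adjusted p 0.229) and Pdgfra at −0.50 ± 0.14 (adjusted p 0.253). The 19 proximal tubule genes had a median of 0.11, with 15 above 0 and 2 at that p. These 2 were Fbp1 at 0.34 ± 0.12 (adjusted p 0.454) and the glucose transporter Slc5a2 at −0.30 ± 0.13 (adjusted p 0.542). The 6 genes of mesangium, smooth muscle and renin cells had a median of 0.02 and 0 at that p, and the 5 tested immune genes a median of −0.05 and 0. Of the immune list, the T cell gene Cd3e, the B cell gene Cd79a and the macrophage gene Adgre1 were detected on at most 1 array by any probe. Of tissue next to the kidney, 1 of 13 adrenal genes was tested (median 0.02, 0 at that p). The 6 tested adipose genes had a median of 0.06 with Scd1 at 0.61 ± 0.26 (adjusted p 0.551), and wild type mouse 2 was the highest wild type mouse for several of them, with Car3 at 6.15 (other wild type mice 4.75 to 5.21) and Adipoq at 5.06 (others 4.27 to 4.37). The 5 tested urothelium genes had a median of 0.16 with Krt7 at 0.29 ± 0.12 (adjusted p 0.534). The part of these cell types in the calls was not tested.

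Of the pathway lists, the following also had 0 calls by limma. Of 12 sterol synthesis genes 9 were below 0 (median −0.12), with Cyp51 at −0.57 ± 0.16 (adjusted p 0.262) and Sqle at −0.26 ± 0.10 (adjusted p 0.468). Of 12 genes of urea, creatine and nitrogen handling 11 were above 0 (median 0.16) and 1 had an unadjusted p under 0.05. The 14 glucocorticoid response genes had 4 at that p (median 0.10), with Angptl4 at 0.37 ± 0.12 (adjusted p 0.363) and Fam107a at −0.52 ± 0.21 (adjusted p 0.530). The 19 genes known to differ between the sexes in mouse kidney also had 4, among them the steroid enzymes Hsd11b1 (−0.62 ± 0.18, adjusted p 0.286, with its other probes at −0.66 and −0.53) and Cyp7b1 (−0.38 ± 0.11, adjusted p 0.271), with a median of 0.02. At the same p there were 3 of 11 renin-angiotensin genes (median −0.04) and 3 of 21 interferon and antigen presentation genes (median −0.06). There were 2 of 14 clock genes (median 0.08), with Per1 at 0.34 ± 0.15 (adjusted p 0.562), and 2 of 13 NRF2 and glutathione genes (median 0.09). Exactly 1 gene was at that p in each of 7 lists: calcium and phosphate (12 tested, median 0.10), immediate early genes (11, median 0.06, Ier3 at 0.47 ± 0.12, adjusted p 0.246), heat shock (22, median −0.01), complement (10, median −0.02), cell cycle (13, median 0.03), lysosome (15, median 0.0048) and organic ion carriers (13, median 0.13). Over all 7907 tested genes 9.07% had an unadjusted p under 0.05 and 49.7% were below 0.

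Both probes of Xist, which is expressed from the inactive X chromosome of females, were detected on 0 of the 8 arrays. The Y-linked Eif2s3y was detected on 8 of 8, at 5.88, 6.20, 6.25 and 6.49 in heterozygous and 6.00, 5.90, 5.80 and 5.90 in wild type mice, a difference of 0.31 ± 0.12 (adjusted p 0.530). The other Y-linked genes with a probe, Kdm5d, Uty and Usp9y, were detected on 1, 2 and 0 of the 8 arrays and were not tested.

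In brain and heart of the same mice the differences of the kidney probes were small. With all 24 arrays normalized together, the kidney difference minus the mean of the brain and heart differences was tested with limma for 14835 probes detected on at least 4 arrays of a tissue. It passed for 63 probes (0.425%; 8.52% had an unadjusted p under 0.05) and for 30 of the 30 called in kidney, of which 21 passed with the place of the array within its tissue as covariate and 25 to 29 with 1 mouse left out. The 30 were chosen for their kidney difference on the same arrays, so that count is a description and no separate evidence. Of the 30, 19 were detected on at least 4 brain arrays, 16 on at least 4 heart arrays and 15 in all 3 tissues, while 10 were detected in neither of the other tissues. Where detected, the largest size was 0.20 in brain (Adssl1) and 0.16 in heart (Bcat1). Pvalb, which neurons also express, was at 12.80 ± 0.09 (SD, n = 4) in heterozygous and 12.83 ± 0.05 in wild type brain, a difference of −0.03 ± 0.10 (SE). Clu was at 11.49 ± 0.11 and 11.58 ± 0.19 in brain and at 11.50 ± 0.04 and 11.51 ± 0.10 in heart, differences of −0.09 ± 0.09 and −0.01 ± 0.09. For Ckb the difference was −0.03 ± 0.09 in brain and 0.02 ± 0.09 in heart, and for Fabp3 −0.04 ± 0.09 and −0.02 ± 0.09.

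**Figure D4:**
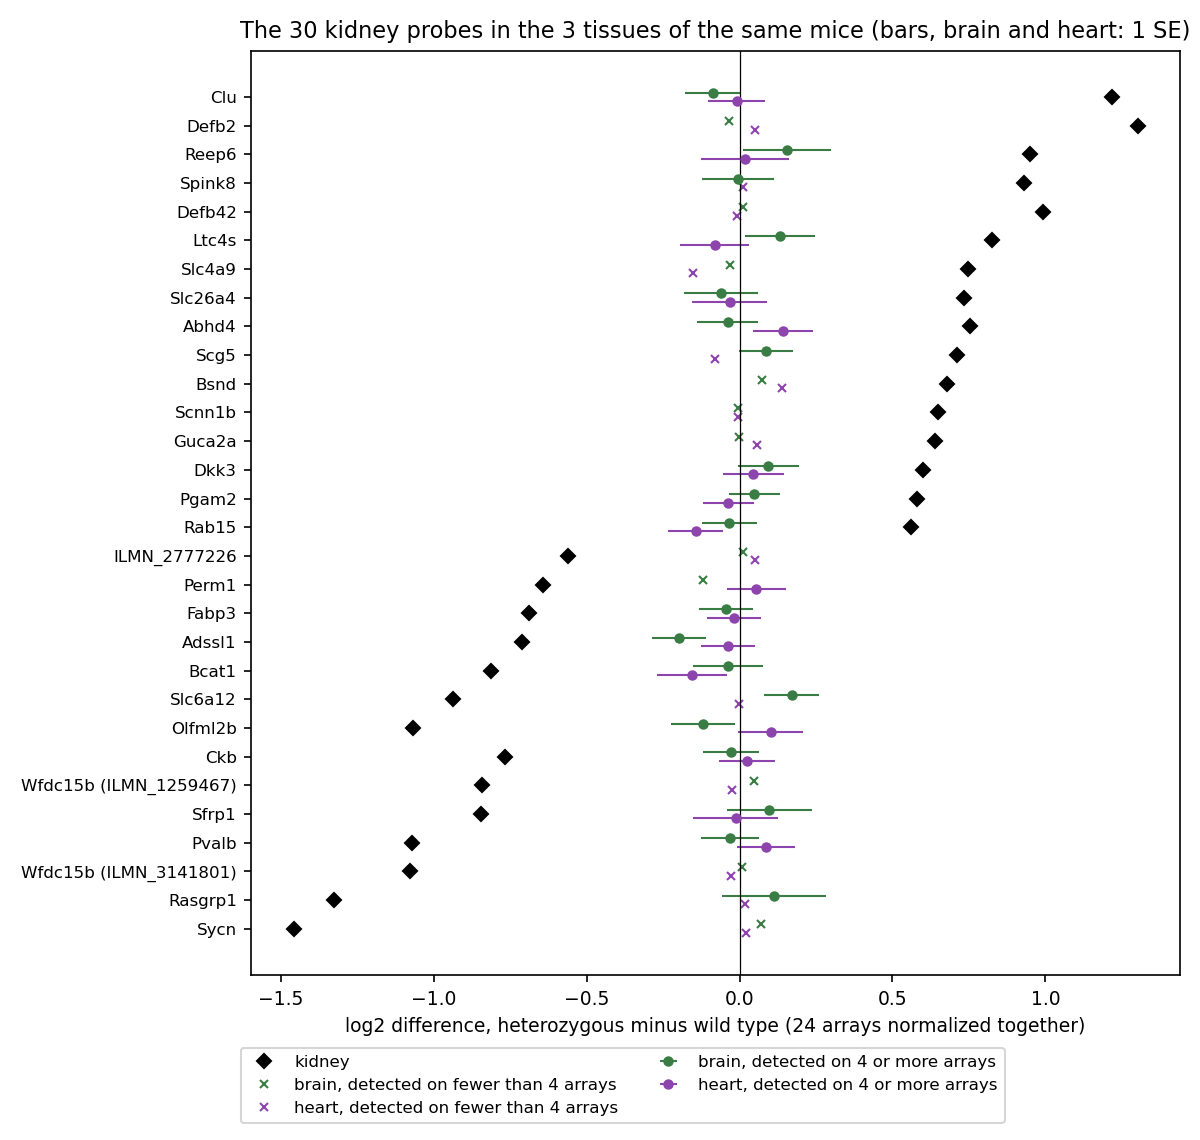
Log2 difference of heterozygous minus wild type mice for the 30 called kidney probes in kidney (black diamonds), brain (green) and heart (purple), with 1 SE as a bar for brain and heart, on the 24 arrays normalized together; crosses mark tissues where the probe was detected on fewer than 4 arrays. The kidney values lie at 0.56 and beyond on either side, and the brain and heart values between −0.20 and 0.17.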

How the data were processed

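Total RNA was extracted with Trizol and RNeasy columns, and biotin-labelled cRNA was hybridised to Illumina bead arrays, per the labels' protocols. For every probe and array the deposited table has an average intensity of the beads and a p-value of detection, per the file headers; the intensity is linear and not normalized, as checked on the values. GenomeStudio 2011.1 is named in the submitters' processing notes, and no step between scanner and table is stated there. The deposited series matrix, linear intensity values whose background step is not stated per the file headers, served as an alternative.

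The 8 kidney arrays were background-corrected with the detection p-values and quantile-normalized by neqc (limma 3.58.1, R 4.3.3, offset 16, log2 scale). Genotypes were compared with lmFit and eBayes and Benjamini-Hochberg adjustment over 10976 probes. With 4 arrays a group, precision is limited by their number. The replicates are separate mice, per the labels. The correction and the offset set the size of a difference for dim probes.

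Gene names come from the platform table: 23978 of 25697 probes have 1 symbol, 0 several and 1719 none. The text names every called gene and, from each of 34 gene lists, up to 4 tested members of smallest p with an unadjusted p under 0.05, by the brightest probe of a gene; further members are named for context and were chosen after their values were seen. The comparison, the lists and the tests were chosen with earlier results of these data known. Start regions are RefSeq's (GRCm38.p6), of which 6453 belong to tested genes. For the comparison with brain and heart all 24 arrays were normalized together and fitted as group means. Alternatives covered the background, normalization, detection filter, spread, weights, sample number, replicate number, threshold and each left-out mouse. Deviations of samples sharing a replicate number correlated at 0.289, 0.00893, 0.0606 and 0.248, not all above 0.1, so the numbers were not taken as pairs.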

Additional observations from a re-analysis of the deposited data

Results flagged for a closer look

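The kidney difference was set apart from that in brain and heart by a test of the difference itself, in 1 limma fit over the 24 arrays, for the 30 called probes and for 5 other probes named here. These are the probes of Slc12a3, the brightest at −0.51 and a dimmer one at −0.59, and Nccrp1 (−0.84), Foxq1 (0.60) and Nhlrc4 (0.57). In brain and in heart the brightest Slc12a3 probe was not detected on any array, so its value restates the kidney difference, which did not pass within kidney (adjusted p 0.158). Nccrp1 was detected on 1 brain array and 0 heart arrays, so its value also restates the kidney difference. The 30 were chosen for their kidney difference on the same arrays. The 5 others were named for their small kidney p-values on these arrays, so their values are no separate evidence either. On the log2 scale the kidney difference exceeded the mean of the other tissues by 1.27 for Clu, 1.29 for Defb2, 0.93 for Spink8, 0.71 for Scg5, 0.86 for Reep6, 0.99 for Defb42, 0.80 for Ltc4s, 0.61 for Guca2a and 0.70 for Abhd4. It did so by 0.53 for Dkk3, 0.58 for Pgam2, 0.84 for Slc4a9, 0.57 for Bsnd, 0.66 for Scnn1b, 0.65 for Rab15 and 0.78 for Slc26a4. The values below 0 were −1.10 for Pvalb, −1.07 and −0.85 for the probes of Wfdc15b, −1.51 for Sycn, −1.02 for Slc6a12, −1.06 for Olfml2b and −0.76 for Ckb. They were −0.66 for Fabp3, −0.72 for Bcat1, −0.61 for Perm1, −1.39 for Rasgrp1, −0.59 for Adssl1, −0.89 for Sfrp1 and −0.59 for ILMN_2777226. Of the 30, 10 were detected in neither brain nor heart, where a difference could hardly be seen.

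In 11 of 176 groups of 4 mice, over 88 probes, 1 mouse lay far from the other 3; chance gives about 1 in 20 such groups. Among the called genes, heterozygous mouse 1 was at 7.26 for Reep6, with the others at 7.81 to 7.89. Heterozygous mouse 2 was at 6.36 for Dkk3, with the others at 6.50 to 6.51, and wild type mouse 1 was at 7.35 for Bsnd, with the others at 7.10 to 7.14. Of the list genes, heterozygous mouse 3 was at 6.63 for Kctd10 (others 7.00 to 7.04), wild type mouse 3 at 5.25 for Trpm6 (others 5.59 to 5.63) and heterozygous mouse 1 at 5.04 for Trpm6 (the highest of the others 5.23). Heterozygous mouse 2 was at 4.82 for Timp1 (others 4.62 to 4.64). Heterozygous mouse 1 was at 13.00 for Hba-a1 (others 12.57 to 12.63) and at 7.48 for Angptl4 (others 7.22 to 7.26). Wild type mouse 1 was at 4.65 for Hspa1a (others 5.20 to 5.30) and at 11.34 for Ccnd1 (others 11.10 to 11.13).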

How the results depend on the processing

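The 30 called probes kept their sign in every alternative that tested them. Their groups do not overlap, which fixes the sign when mice are left out or the run is a block. The kept sign is therefore no separate evidence. The number of called probes was 15 without background correction (13 of the 30 among them), 14 without the detection filter, 219 with the spread shared over all 24 arrays, 49 with array weights, 18 with the sample number as covariate, 8 without the first and the last array and 6 at 2-fold or more. The cause was not tested, apart from the stricter or wider construction of the filter, the spread and the fold limit. With 1 mouse left out it was 15 to 50: 22, 19, 17 and 50 without wild type mouse 1, 2, 3 or 4, and 48, 17, 19 and 15 without heterozygous mouse 1, 2, 3 or 4. Pvalb, Clu, Defb2, Spink8 and the brighter Wfdc15b probe were called wherever they were tested, except that Spink8 did not reach 2-fold. The median size of the 30 was 0.41 without background correction, against 0.80. With the replicate block 43 probes were called, 29 of the 30 among them; the numbers do not pair the mice, and 2 of 4 samples correlated best with their own number. Of the distal convoluted tubule genes 2 had an unadjusted p under 0.05 after a shift to a common median, against 4. Of the intercalated genes there were 3 without background correction, 2 with the sample number as covariate, 3 with the runs as block, 2 without the first and the last array and 3 to 6 with 1 mouse left out, against 5. Of the endothelial genes there were 5 after a shift to a common median, 5 with the sample number as covariate and 4 without the first and the last array, against 10. The shift moved the median of all probes by 0.07. The kidney difference against brain and heart passed for 26 probes among those detected in every tissue, 37 with the place of the array within its tissue as covariate, 60 with the replicate block, 69 with the mouse as a random block and 39 to 79 with 1 mouse left out (39 without wild type mouse 2), against 63. Dim probes limit the sizes: 26 of the 30 were detected on all 8 arrays.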

Other observations

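Just outside the threshold of the adjusted p lay 9 named probes with sizes of 0.50 to 0.78. Svep1, which encodes an extracellular matrix protein, was at −0.55 ± 0.11 (SE, adjusted p 0.0547). Its probe was dim and was detected on 1 heterozygous and 4 wild type arrays. Nccrp1 was at −0.78 ± 0.16 (adjusted p 0.0791) and the orphan nuclear receptor Esrrb at −0.50 ± 0.10 (adjusted p 0.0826). The transcription factor Ets1 was at −0.57 ± 0.12 (adjusted p 0.0831). Higher in heterozygous mice were Foxq1, a forkhead transcription factor (0.59 ± 0.12, adjusted p 0.0791), Spast, which encodes the microtubule-severing spastin (0.54 ± 0.11, adjusted p 0.0773), Nhlrc4 (0.50 ± 0.10, adjusted p 0.0561) and Hhatl (0.56 ± 0.12, adjusted p 0.0831). The groups of Svep1, Foxq1, Spast, Nhlrc4, Esrrb, Hhatl and Ets1 did not overlap, and those of Nccrp1 did. Groups without overlap were found for 4.58% of all tested probes. These probes were picked for their small p-values, so the lack of overlap is no separate evidence. Just inside it were Slc26a4 (adjusted p 0.0377), Scnn1b and Rab15 (both 0.0343).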
